A study of Mus musculus with 24 samples.

Results

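The genes described here are 10 members of the TNF-receptor and costimulatory system of T cells, measured in Treg and CD8 T cells sorted from mouse tumours. They were chosen by name, with earlier results of these data known. They are Tnfrsf4, Tnfrsf9, Tnfrsf18, Tnfrsf1b and Cd27 (TNF-family receptors), Icos and Cd28 (receptors of the immunoglobulin superfamily), Cd40lg and Ltb (TNF-family ligands) and Traf1 (an adaptor). Each symbol matched 1 row, so the set is 10 of the 54957 gene rows of the deposited count table. All 10 passed the filter on low counts in every comparison. The libraries were bulk Smart-seq2 libraries, a protocol that amplifies polyadenylated RNA from small pools of cells, and there were 24, in 6 groups of 4. Mice bearing B16F10-OVA tumours, melanoma cells made to express ovalbumin, received 200 micrograms of anti-JAML, anti-PD-1 or isotype control antibody, and tumours were taken 1 day later. PD-1 restrains activated T cells, and JAML belongs to the junctional adhesion molecules. From each antibody group came 4 libraries of CD4+FOXP3+ Treg cells and 4 of CD8+ T cells. The sources used here give no strain, sex or age. Nor do the labels tell whether each library of a group is its own mouse, so a p-value reflects only how far these libraries scatter, and that scatter may be technical.

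T cells need a further signal beside their antigen receptor, and these genes supply much of it. CD28 gives that signal at priming and ICOS, its inducible relative, later on. The TNF-family receptors OX40 (Tnfrsf4), GITR (Tnfrsf18), CD137 (Tnfrsf9), TNFR2 (Tnfrsf1b) and CD27 recruit TRAF adaptors to their tails and lead to NF-kB signalling and survival. In Treg cells OX40, GITR, TNFR2 and ICOS are well known as surface proteins at high level, and antibodies to several of them have been developed for tumour therapy. CD137 is also known as a mark of recently stimulated CD8 T cells.

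Several of the genes are neighbours in the genome. In mm10, with GENCODE M21 annotation, Tnfrsf9 (chr4:150914562-150946102, plus strand), Tnfrsf4 (chr4:156013843-156016612, plus strand), Tnfrsf18 (chr4:156026164-156028895, plus strand) and Tnfrsf1b (chr4:145213463-145246870, minus strand) lie on chromosome 4. Tnfrsf4 and Tnfrsf18 are 9551 bases apart. On chromosome 1, Cd28 (chr1:60716800-60773359) and Icos (chr1:60977927-61000320), both on the plus strand, flank Ctla4, the gene of the inhibitory receptor of the CD28 family. Ltb (chr17:35194439-35196320, plus strand) ends 3060 bases from Tnf, the gene of TNF itself. Cd27 (chr6:125232622-125237010, minus strand), Traf1 (chr2:34941750-34961772, minus strand) and Cd40lg (chrX:57212143-57224042, plus strand) stand alone among the 10. All 10 are protein-coding, with between 1250 (Cd40lg) and 8819 (Traf1) exonic bases. Tnfrsf18 shares 414 exonic bases with Gm16008, an antisense gene on the other strand, and no source used here gives the strand setting of the authors' counting, so reads in that stretch cannot be assigned with certainty.

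Promoter sequence of 7 of the 10 genes was found in RefSeq (GRCm38.p6 build), with 8 entries because Tnfrsf9 had 2 starts. Of these, 3 are shown, 5′ to 3′ on the gene's strand and cut to the part of the 250 bases before the RefSeq start that lies outside every annotated exon: Ltb because it differed most between antibodies in Treg cells, and Tnfrsf4 with Tnfrsf18 because their levels ran closest together of all pairs. Capitals mark a match to the NF-kB consensus.
Ltb: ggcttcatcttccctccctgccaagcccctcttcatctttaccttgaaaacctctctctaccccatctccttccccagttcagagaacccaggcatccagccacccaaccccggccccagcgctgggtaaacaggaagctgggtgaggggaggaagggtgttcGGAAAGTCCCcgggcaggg
Tnfrsf4: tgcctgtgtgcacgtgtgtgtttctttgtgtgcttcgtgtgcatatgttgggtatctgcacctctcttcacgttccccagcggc
Tnfrsf18: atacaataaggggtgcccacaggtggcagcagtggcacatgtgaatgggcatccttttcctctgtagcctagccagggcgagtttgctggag
The stretches lie at chr17:35194257-35194438 (Ltb, 182 bases), chr4:156013611-156013694 (Tnfrsf4, 84 bases) and chr4:156026072-156026163 (Tnfrsf18, 92 bases), all on the plus strand. The match in Ltb is on the minus strand and begins 87 bases before the RefSeq start. Over the whole 250 bases before a start and both strands, the NF-kB consensus matched in Ltb and, at 2 overlapping places, before the downstream start of Tnfrsf9, against 7.25% of the 32851 RefSeq promoters. The AP-1 motif TGANTCA was found in 1 place, 15 bases before that same Tnfrsf9 start, and is in 6.75% of the promoters. The forkhead motif GTAAACA was found in 1 place, 124 bases before the Ltb start, and is in 3.17% of them. The Tnfrsf9 matches lie in the 81 bases that the same cut for annotated exons leaves out of that window. A match describes the letters in these windows and does not show that a factor binds there.

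Libraries held 11170918 to 22556460 counted reads, the median being 16238787. The labelled populations showed their markers: Foxp3 stood between 40.6 and 169 CPM in the 12 Treg libraries and at 0 in the 12 CD8 libraries, and Cd8a between 0 and 0.0761 CPM in Treg libraries and between 1096 and 1898 CPM in CD8 libraries. CPM is the count scaled to the library size after TMM scaling. Of 8 macrophage markers, the summed level was between 11.6 and 1161 CPM in Treg anti-PD-1 libraries, with all 8 markers above 0 in 3 of them, against between 15.4 and 75.4 CPM in Treg isotype libraries. It reached 455 CPM in CD8 anti-JAML library 2, and Treg anti-PD-1 libraries 1 and 4 held 785 and 1161 CPM. Most of each sum was 1 gene, Lyz2, with 412.5, 657.6 and 865.7 CPM in that order. In CD8 anti-JAML library 2, 3 of the 8 markers were at 0. Mitochondrial genes took 6.888% of the counts in CD8 anti-JAML library 4 and 4.003% in Treg isotype library 3, which also had the fewest detected genes of the 24 (12643). These 5 libraries (CD8 anti-JAML 2 and 4, Treg anti-PD-1 1 and 4, Treg isotype 3) are the ones said to stand apart, and their part in the differences between groups was not tested except by leaving them out. The summed level of 4 erythroid markers was 1373 CPM in Treg anti-JAML library 4, 681 CPM in Treg anti-PD-1 library 1, 491 and 404 CPM in CD8 anti-JAML libraries 2 and 4 and 272 CPM in CD8 isotype library 3, and at most 7.80 CPM in the other 19 libraries. Treg anti-JAML library 3 held 187 CPM of 5 dendritic markers, against at most 70.1 CPM elsewhere. The part of these in the anti-JAML comparisons was not tested except in the fits that left libraries out. Fewer cells of a type and less RNA per cell cannot be told apart in such bulk libraries.

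On the authors' TPM scale, which divides by gene length and so allows genes to be compared, the levels of the 10 genes summed to between 8675 and 12518 TPM in Treg libraries (median 10233, n = 12) and to between 3284 and 4449 TPM in CD8 libraries (median 3586, n = 12). The leading gene differed between the populations. Tnfrsf4 was highest in Treg libraries, with a median of 4194 TPM and a range of 3036 to 5000 that lay above every Treg value of the next gene, Ltb (median 1928 TPM). Ltb and Tnfrsf9 (median 1890 TPM) could not be ordered, with Ltb higher in 7 of 12 libraries, and Tnfrsf9 exceeded Tnfrsf18 (median 1343 TPM) in 8 of 12. After a gap came Icos (484 TPM) and Cd27 (473 TPM), with overlapping ranges, and then Traf1 (129.8 TPM), Cd28 (126 TPM) and Tnfrsf1b (118 TPM), whose ranges overlapped too. Cd40lg closed the order at 41.6 TPM. In CD8 libraries Tnfrsf9 led with a median of 1305 TPM, above Tnfrsf4 (789 TPM) in 11 of 12 libraries. Ltb (507 TPM), Cd27 (368 TPM) and Tnfrsf18 (289 TPM) followed, each above the next in 10 of 12 libraries. Cd28 (64.4 TPM), Icos (50.6 TPM), Tnfrsf1b (35.4 TPM) and Traf1 (33.8 TPM) had overlapping ranges below that, and Cd40lg stood at 2.16 TPM.

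**Figure D1:**
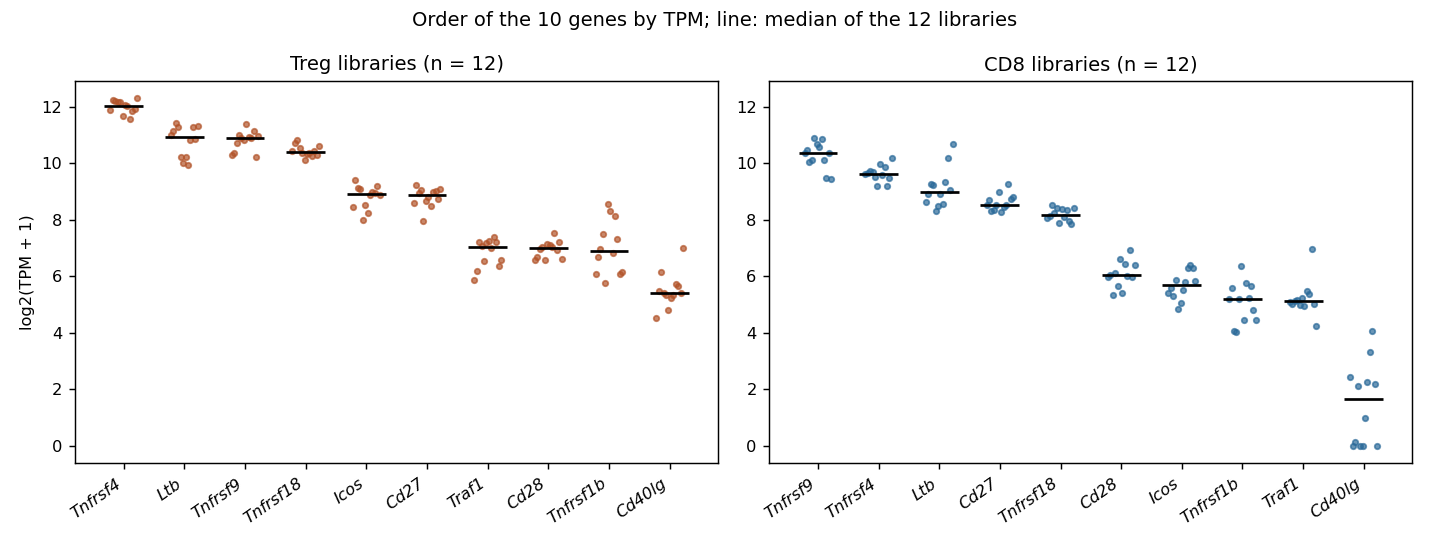
Levels of the 10 genes in the 12 Treg libraries (left) and the 12 CD8 libraries (right), as log2(TPM + 1) on the vertical axis, each point 1 library and each line the median, genes ordered by median. Tnfrsf4 leads in Treg libraries (median 4194 TPM) and Tnfrsf9 in CD8 libraries (median 1305 TPM), and Cd40lg is last in both.

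The main contrast asked how the 10 genes differ between tumour Treg and CD8 T cells, averaged over the 3 antibodies. Of the 10, 8 rose in Treg cells: Cd40lg, Icos, Tnfrsf4, Tnfrsf18, Tnfrsf1b, Ltb, Traf1 and Cd28. Tnfrsf9 and Cd27 did not pass the test, and none of the 10 was lower. Of all 14591 genes tested, 11.9% were called higher in Treg cells, 14.2% lower and 26.1% in either direction by edgeR's quasi-likelihood test at an adjusted p under 0.05. The median log2 fold change of the 10 genes was 1.70, and that of all genes tested 0.01. Because the 10 were chosen with earlier results of these data known, setting them beside all genes is no independent test of the set. In 5 of the 10 (Tnfrsf4, Tnfrsf18, Icos, Cd28 and Cd40lg) every Treg library stood above every CD8 library in CPM, which was so for 1.21% of all genes. On the TPM scale the ranges of Cd28 overlapped.

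Tnfrsf4, the OX40 receptor, had a lowest, median and highest level of 1368, 2276 and 2977 CPM in the 12 Treg libraries, against 233, 528 and 662 CPM in the 12 CD8 libraries. The groups did not overlap. Tnfrsf4 rose by 2.20 ± 0.17 (SE) on the log2 scale, 4.59-fold, with an adjusted p of 1.33e-09 by edgeR's quasi-likelihood test. Tnfrsf18, the GITR receptor, had 565, 831 and 1239 CPM in Treg libraries, against 109, 210.3 and 290.4 CPM in CD8 libraries. Here too the lowest Treg library was above the highest CD8 library, and the log2 fold change was 2.09 ± 0.14 (edgeR adjusted p = 2.15e-10). The antisense gene Gm16008 that overlaps Tnfrsf18 averaged 8.15 ± 3.90 CPM in Treg libraries and 1.08 ± 0.740 CPM in CD8 libraries (SD, n = 12 each), small beside Tnfrsf18 in both.

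The 2 neighbours on chromosome 4 kept a similar ratio in both populations. Tnfrsf4 CPM over Tnfrsf18 CPM lay between 2.22 and 3.13 in Treg libraries (median 2.702) and between 1.93 and 3.04 in CD8 libraries (median 2.53). Their centred log2 CPM profiles over the 24 libraries differed by 0.177 on average (root mean square), the least of the 45 pairs among the 10 genes, and the next closest pair, Cd27 and Cd28, differed by 0.488. Levels of both spread widely within Treg cells, with a highest over lowest ratio of 2.18 for Tnfrsf4 and 2.19 for Tnfrsf18.

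Tnfrsf1b, the gene of TNFR2, varied most among the receptors. It had 96.0, 193 and 475 CPM (lowest, median, highest) in the 12 Treg libraries, against 27.6, 60.0 and 116 CPM in the 12 CD8 libraries. Of the 12 Treg libraries 9 were above every CD8 library and the other 3 lay within the CD8 range. Tnfrsf1b rose by 1.91 ± 0.28 on the log2 scale (edgeR adjusted p = 1.63e-05). The widest spread was among Treg anti-PD-1 libraries, with a coefficient of variation of 65.3%. Libraries 2 and 3 of that group had 475 and 393 CPM. Its libraries 1 and 4, those with the most macrophage marker RNA, had 96.0 and 156 CPM. Treg isotype library 1 and Treg anti-JAML libraries 3 and 4 were low too (123, 112 and 115 CPM). Their summed macrophage markers were 15.4, 98.5 and 32.2 CPM. The part of macrophage RNA in these values was not tested.

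Cd27, the receptor for CD70, was the gene with the smallest difference. Its levels were 272, 435 and 619 CPM in Treg libraries, against 329, 415 and 470 CPM in CD8 libraries, so the ranges overlapped on both sides. The log2 fold change was 0.03 ± 0.09 and did not pass the test (edgeR adjusted p = 0.845).

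Tnfrsf9, the gene of CD137, was high in both populations. It had 1428, 1986 and 2414 CPM in the 12 Treg libraries, against 557, 1647 and 2477 CPM in the 12 CD8 libraries. No Treg library was above the highest CD8 library, and CD8 libraries reached lower, with 557 and 793 CPM in anti-JAML libraries 2 and 4. The log2 fold change was 0.35 ± 0.14 (edgeR adjusted p = 0.0767). This call depended on the processing: the adjusted p was 0.00974 with DESeq2, 0.0197 with RLE scaling and 0.0135 without a filter on low counts. Without the 5 libraries that stood apart the log2 fold change was 0.22 (edgeR adjusted p = 0.208).

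Icos, the inducible costimulator, had the largest log2 fold change of the 10 after Cd40lg. It had 336, 602 and 1036 CPM in the 12 Treg libraries, against 41.5, 76.5 and 124 CPM in the 12 CD8 libraries. The groups were far apart, the lowest Treg library standing above every CD8 library, and the log2 fold change was 3.01 ± 0.14, 8.04-fold (edgeR adjusted p = 2.68e-13). Cd28, the primary costimulatory receptor, differed far less. It had 259, 281 and 389.6 CPM in Treg libraries, against 118, 191 and 226 CPM in CD8 libraries. These groups did not overlap in CPM either, and the log2 fold change was 0.72 ± 0.11 (edgeR adjusted p = 4.87e-05). In TPM they did overlap, with 93.3 to 184 in Treg libraries, against 39.5 to 121 in CD8 libraries. Ctla4, which lies between the pair on chromosome 1, averaged 838 ± 183 CPM in Treg libraries and 134 ± 29.4 CPM in CD8 libraries (SD, n = 12 each) and rose by 2.64 ± 0.12 on the log2 scale (edgeR adjusted p = 1.35e-13).

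Of the ligands, Ltb encodes lymphotoxin beta, the membrane anchor of the lymphotoxin heterotrimer. It had 524, 1277 and 1881 CPM in the 12 Treg libraries, against 202, 359 and 1029 CPM in the 12 CD8 libraries. Among Treg libraries 7 were above every CD8 library, and the overlap came from CD8 anti-JAML library 4 at 1029 CPM, the next highest CD8 library having 509 CPM. Ltb rose by 1.49 ± 0.16 on the log2 scale, 2.81-fold (edgeR adjusted p = 1.84e-07). Cd40lg, the helper ligand for CD40 on antigen-presenting cells, was low throughout. It had 11.5, 21.96 and 68.7 CPM in Treg libraries, against 0, 1.23 and 5.71 CPM in CD8 libraries, 4 of which had no count. The ranges did not meet, and the log2 fold change was 4.15 ± 0.76 (edgeR adjusted p = 0.000224), the least precise of the 10. CD8 libraries held 0 to 81 reads each.

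Traf1, an adaptor that binds TNFR2, CD137 and other receptors of the family and is itself an NF-kB target, also rose in Treg cells. It had 241, 416 and 589.8 CPM in the 12 Treg libraries, against 66.3, 139 and 319 CPM in the 12 CD8 libraries. Among Treg libraries 9 were above every CD8 library, and CD8 anti-JAML library 2 alone, at 319 CPM, reached into the Treg range. Traf1 rose by 1.44 ± 0.18 on the log2 scale (edgeR adjusted p = 2.62e-06).

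**Figure D2:**
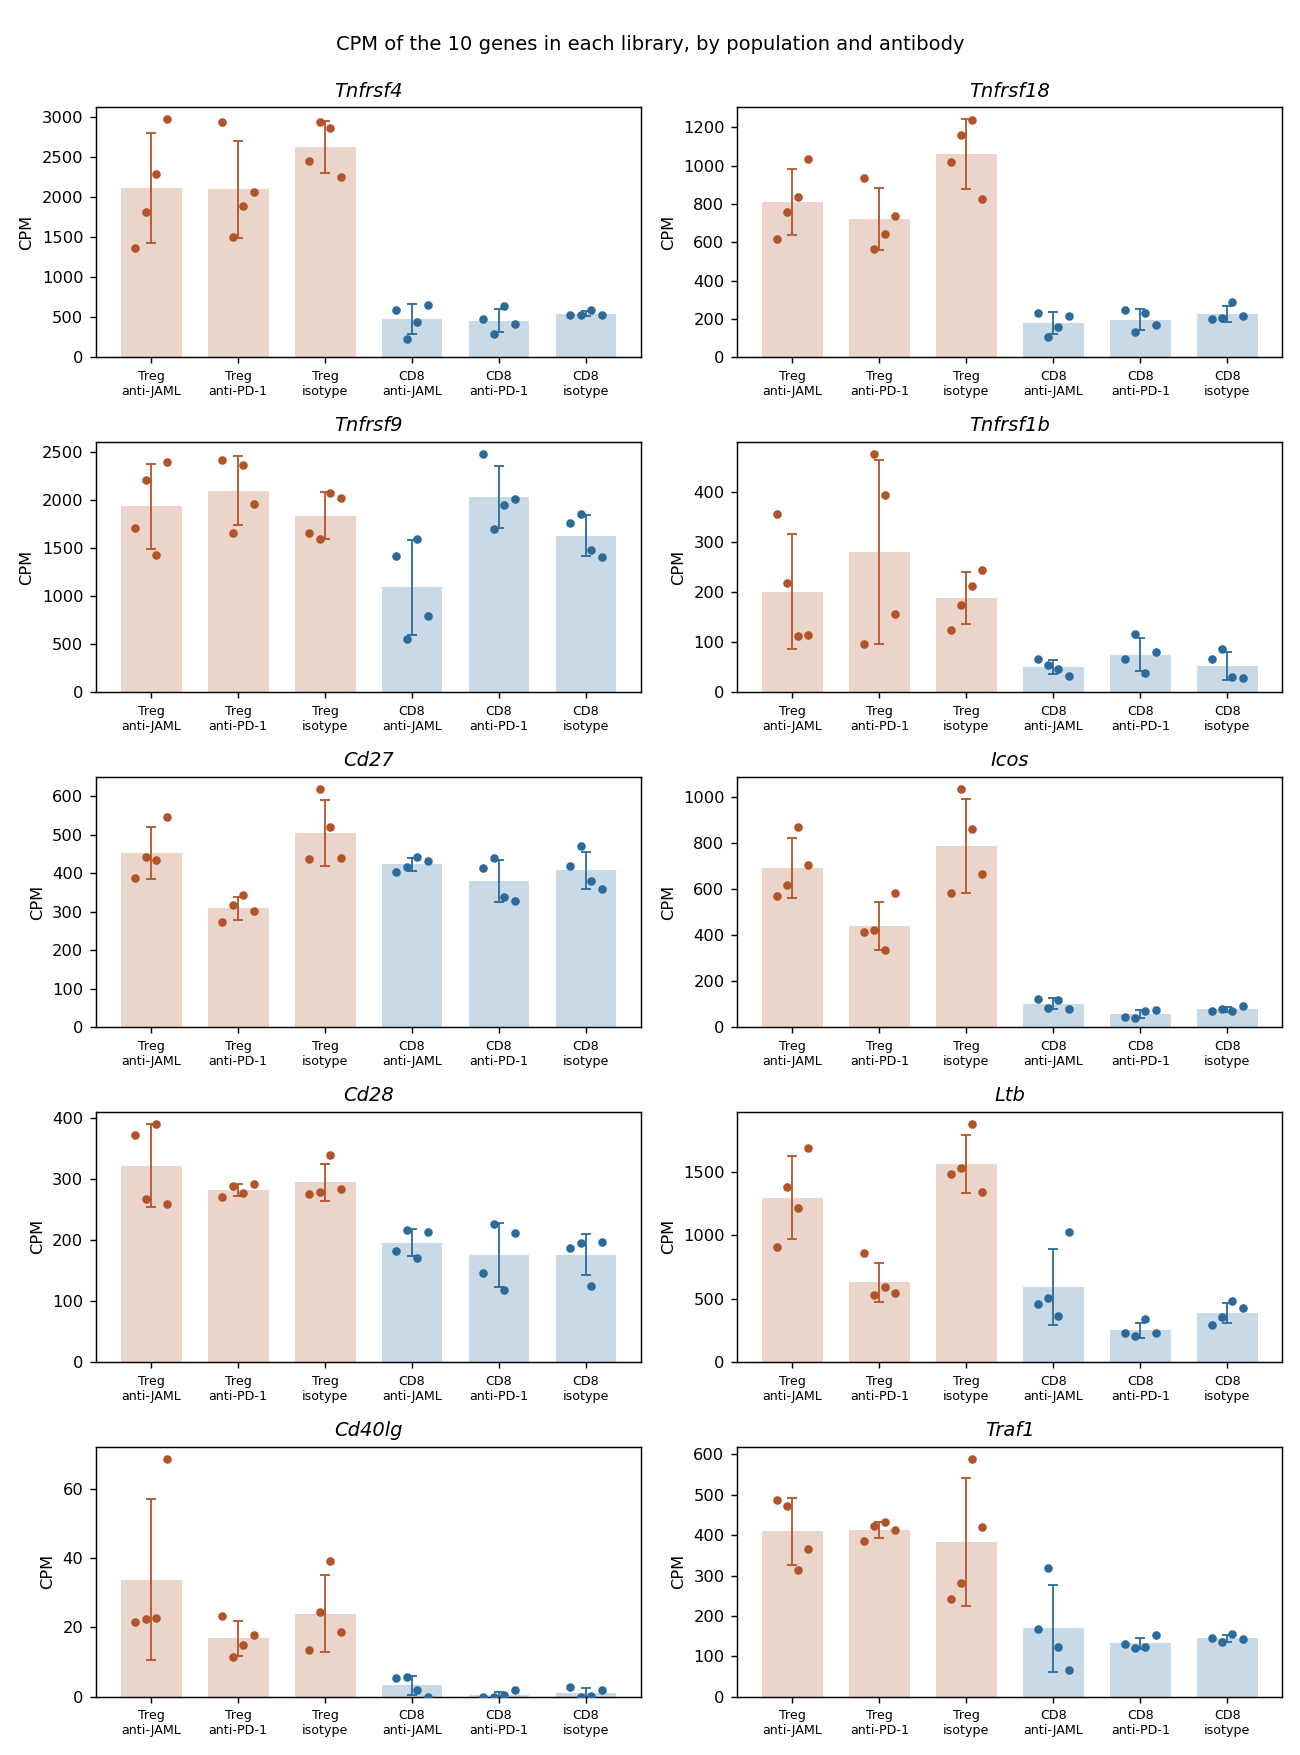
CPM of each of the 10 genes by group, Treg groups at left in orange and CD8 groups at right in blue, each point 1 library, bars the mean and error bars the SD of 4 libraries. Icos, Tnfrsf4, Tnfrsf18, Cd28 and Cd40lg show Treg points above every CD8 point, while Tnfrsf9 and Cd27 overlap, and Ltb is lowest after anti-PD-1 in both populations.

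The same contrast was run within each antibody, where the 3 comparisons share no library. After anti-JAML 4 of the 10 genes rose in Treg cells (Icos, Tnfrsf4, Tnfrsf18 and Tnfrsf1b), against 1.35% of all genes tested. After anti-PD-1 7 rose, against 4.21% of all genes: these 4 with Ltb, Traf1 and Cd40lg. After isotype 8 rose, against 7.12% of all genes, the same 7 with Cd28. DESeq2 called 7 after anti-JAML, against 8.19% of all genes in either direction. The members' median log2 fold change was 1.74 after anti-JAML, 1.77 after anti-PD-1 and 1.99 after isotype.

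Icos was 2.85 ± 0.23 higher on the log2 scale after anti-JAML, 2.91 ± 0.27 after anti-PD-1 and 3.42 ± 0.22 after isotype, called each time with edgeR adjusted p-values of 0.000467, 0.000413 and 4.5e-05. Tnfrsf4 rose by 2.22 ± 0.35, 2.20 ± 0.29 and 2.34 ± 0.12 in the same order of antibodies (edgeR adjusted p = 0.0131, 0.00212 and 3.11e-05). Tnfrsf18 rose by 2.27 ± 0.28, 1.88 ± 0.25 and 2.29 ± 0.18 (edgeR adjusted p = 0.00399, 0.00238 and 0.000135). These 3 genes were called whichever antibody the mice had received. Without CD8 anti-JAML library 3, though, Tnfrsf4 after anti-JAML had an adjusted p of 0.0567.

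Tnfrsf1b rose by 2.11 ± 0.42 after anti-JAML, 1.90 ± 0.51 after anti-PD-1 and 1.90 ± 0.39 after isotype (edgeR adjusted p = 0.0333, 0.0481 and 0.0116). The 2 calls after anti-JAML and anti-PD-1 were fragile, each lost in 6 of the 8 fits that left out 1 library, with adjusted p-values up to 0.117 and 0.137. Cd40lg had log2 fold changes of 3.46 ± 1.10 after anti-JAML, 4.76 ± 1.21 after anti-PD-1 and 4.39 ± 1.25 after isotype (edgeR adjusted p = 0.182, 0.0415 and 0.0435). Its calls were lost in 5 of 8 such fits after anti-PD-1 (adjusted p up to 0.0985) and in 7 of 8 after isotype (up to 0.0896).

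Ltb had a log2 fold change of 1.22 ± 0.34 after anti-JAML, 1.34 ± 0.23 after anti-PD-1 and 2.08 ± 0.18 after isotype (edgeR adjusted p = 0.121, 0.00889 and 0.000187). Leaving out CD8 anti-JAML library 4, with its 1029 CPM, gave 1.57 after anti-JAML (adjusted p = 0.0253). Traf1 had 1.36 ± 0.43, 1.65 ± 0.16 and 1.47 ± 0.26 in the same order (edgeR adjusted p = 0.173, 0.000413 and 0.00612), and leaving out CD8 anti-JAML library 2 gave 1.89 after anti-JAML (adjusted p = 0.0235). With all 8 libraries kept and the spread estimated over all 24, both also passed after anti-JAML (edgeR adjusted p = 0.0139 for Ltb and 0.018 for Traf1), and DESeq2 called Ltb (adjusted p = 0.028).

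Cd28 kept an even difference, 0.81 ± 0.21 after anti-JAML, 0.69 ± 0.22 after anti-PD-1 and 0.81 ± 0.17 after isotype, and in these fits was called after isotype alone (edgeR adjusted p = 0.093, 0.0824 and 0.0136). The call depended on the fit: with all 24 libraries in it the adjusted p was 0.035 after anti-JAML and 0.0435 after anti-PD-1, and with DESeq2 0.00838 and 0.0205 in that order. Tnfrsf9 had log2 fold changes of 0.92 ± 0.34, 0.05 ± 0.19 and 0.24 ± 0.14 in that order, none past the threshold (edgeR adjusted p = 0.269, 0.9 and 0.304). Without the libraries that stood apart, the value was 0.45 after anti-JAML and -0.02 after anti-PD-1. Cd27 had 0.18 ± 0.18, -0.29 ± 0.17 and 0.38 ± 0.15 (edgeR adjusted p = 0.778, 0.308 and 0.141), and DESeq2 called it higher after isotype (0.43, adjusted p = 0.0447).

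**Figure D3:**
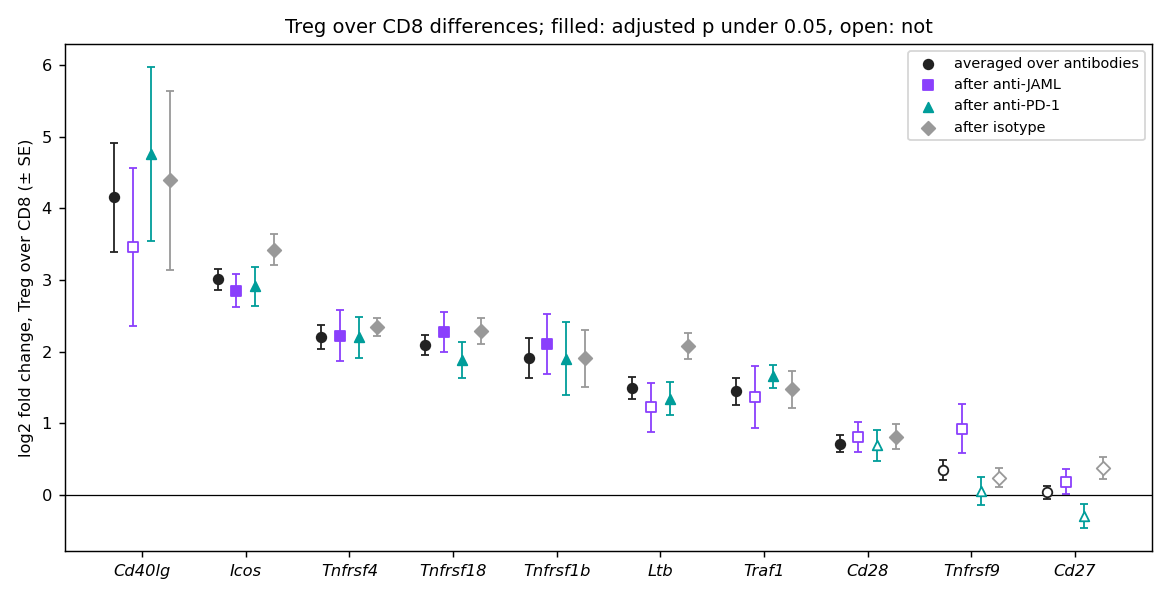
Log2 fold change of Treg over CD8 cells for the 10 genes, averaged over antibodies and after anti-JAML, anti-PD-1 and isotype, with SE bars; filled symbols have an edgeR adjusted p under 0.05. The averaged values run between 4.15 for Cd40lg and 0.03 for Cd27.

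Within a population, the antibodies were compared to ask whether anti-JAML or anti-PD-1 changed these genes 1 day after dosing. None of the 10 was called by edgeR in any of the 6 comparisons, which share libraries and are not independent. The shares of all genes called were as low. In Treg cells they were 0% for anti-JAML over isotype, 0.0231% for anti-PD-1 over isotype and 0% for anti-JAML over anti-PD-1. In CD8 cells they were 0%, 0% and 0.00791% in the same order. At an unadjusted p under 0.05 the 10 genes gave 0, 4 and 3 in Treg cells and 1, 0 and 3 in CD8 cells in that order. The shares of all genes at the same cut were 5.38%, 14.1% and 5.72% in Treg cells and 11.7%, 5.61% and 9.97% in CD8 cells. DESeq2 called 0, 3 and 1 of them in Treg cells (shares of all genes 1.02%, 5.62% and 0.937%) and 0, 0 and 2 in CD8 cells (2.17%, 0.385% and 2.91%).

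Ltb stood out among the 10 for its values by antibody. In Treg cells its 4 libraries had 858, 524, 591 and 548 CPM after anti-PD-1, against 1484, 1535, 1881 and 1342 CPM after isotype. The highest anti-PD-1 library was below the lowest isotype library, an arrangement seen in that direction for 3.07% of all genes. The log2 fold change was -1.31 ± 0.21 (edgeR adjusted p = 0.0705), and the adjusted p was 7.78e-07 with DESeq2. The edgeR value passed the threshold without Treg isotype library 4 (0.0306), without Treg anti-PD-1 library 1 (0.0262), without Treg anti-JAML library 1 (0.0426) or without a filter on low counts (0.0267). Treg anti-PD-1 libraries 1 and 4 held 785 and 1161 CPM of macrophage markers, and libraries 2 and 3 held 157 and 11.6 CPM. Other measures differed between the same groups, in both directions. Cd3e, a subunit of the T-cell receptor complex, had 555 to 777 CPM in Treg anti-PD-1 libraries, against 905 to 1204 CPM in Treg isotype libraries, and Cd3d had 923 to 1381 CPM, against 1276 to 1949.6 CPM. Among the Treg markers, Il2ra was higher, with 288 to 410 CPM after anti-PD-1, against 141 to 269 CPM after isotype. Ikzf2 had a lower mean (823 against 1219 CPM). Foxp3, Cd4 and Ikzf4 overlapped, with means of 79.4, 304 and 97.5 CPM after anti-PD-1, against 70.1, 274 and 79.8 CPM after isotype. Between 14031 and 15162 genes were detected after anti-PD-1, against 12643 to 14378 after isotype, and mitochondrial genes took 1.205% to 3.382% of counts, against 2.093% to 4.003%. The part of these in the values of Ltb, Cd27, Icos and Tnfrsf18 was not tested. With the libraries that stood apart left out the log2 fold change was -1.36 (edgeR adjusted p = 0.129).

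After anti-JAML, Ltb had 906, 1378, 1213 and 1690.1 CPM in Treg cells, again above all 4 anti-PD-1 values, as were 2.27% of all genes. The log2 fold change of anti-JAML over anti-PD-1 was 1.04 ± 0.21 (edgeR adjusted p = 0.375; DESeq2 adjusted p = 0.000603). Against isotype it was -0.27 ± 0.21, and those groups overlapped.

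In CD8 cells Ltb had 459, 509, 365 and 1029 CPM after anti-JAML, 231, 202, 338 and 228 CPM after anti-PD-1, and 295, 353, 478 and 427 CPM after isotype. All anti-JAML libraries were above all anti-PD-1 libraries (2.6% of all genes in that direction), and both groups overlapped with isotype. The log2 fold change of anti-JAML over anti-PD-1 was 1.26 ± 0.30 (edgeR adjusted p = 0.155; DESeq2 adjusted p = 0.00635), and without anti-JAML libraries 2 and 4 it was 0.72 (edgeR adjusted p = 0.357). For anti-JAML over isotype it was 0.65 ± 0.30 (edgeR adjusted p = 0.423), and without the same libraries 0.12.

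Cd27 in Treg cells followed a like order at a smaller size. Its 4 libraries had 272, 317, 343 and 301 CPM after anti-PD-1, against 436, 619, 519 and 440.2 CPM after isotype. In CPM the groups did not overlap, as for 3.07% of all genes in that direction. In TPM they did, with 247 to 450 after anti-PD-1, against 388 to 592 after isotype. The log2 fold change was -0.71 ± 0.16 (edgeR adjusted p = 0.0968, DESeq2 adjusted p = 0.00212). Without the libraries that stood apart it was -0.58 (edgeR adjusted p = 0.288). After anti-JAML Cd27 had 386, 443, 433 and 545 CPM, all above the anti-PD-1 libraries, as for 2.27% of all genes. In TPM these groups overlapped, with 425 to 537 after anti-JAML. The log2 fold change over anti-PD-1 was 0.55 ± 0.16 (edgeR adjusted p = 0.641), and 0.44 without the libraries that stood apart. CD8 cells had 403 to 441 CPM after anti-JAML, 329 to 439 CPM after anti-PD-1 and 359 to 470 CPM after isotype, with every pair of groups overlapping.

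Icos in Treg cells had 412, 422, 336 and 583 CPM after anti-PD-1, against 581, 1036, 863 and 665 CPM after isotype. These groups met at 1 library each, 583 CPM after anti-PD-1 and 581 CPM after isotype, and the log2 fold change was -0.85 ± 0.22 (edgeR adjusted p = 0.123; DESeq2 adjusted p = 0.0115). After anti-JAML Treg libraries had 572, 620.1, 871 and 707 CPM, a log2 fold change over anti-PD-1 of 0.66 ± 0.22 (edgeR adjusted p = 0.726). In CD8 cells Icos had 124, 84.3, 119.7 and 80.2 CPM after anti-JAML, against 45.8, 41.5, 71.8 and 75.2 CPM after anti-PD-1. The anti-JAML libraries were all above the anti-PD-1 libraries, as for 2.6% of all genes. The log2 fold change was 0.82 ± 0.24 (edgeR adjusted p = 0.229, DESeq2 adjusted p = 0.0255).

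Tnfrsf9 in CD8 cells had 1421, 557, 1597 and 793 CPM after anti-JAML, against 2477, 1696, 1944 and 2006 CPM after anti-PD-1. No anti-JAML library reached the lowest anti-PD-1 library, as for 3.32% of all genes in that direction, and the log2 fold change was -0.88 ± 0.28 (edgeR adjusted p = 0.266). Without anti-JAML libraries 2 and 4, the 2 lowest, it was -0.42. Isotype libraries had 1761, 1856, 1484 and 1411 CPM and overlapped with the anti-JAML group. In Treg cells the 3 antibody groups overlapped, with 1428 to 2390.15 CPM after anti-JAML, 1653 to 2414 CPM after anti-PD-1 and 1592 to 2071 CPM after isotype.

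Tnfrsf18 in Treg cells had 937, 565, 641 and 738 CPM after anti-PD-1, against 1018, 1159, 1239 and 825 CPM after isotype. A single anti-PD-1 library, at 937 CPM, lay within the isotype range, and the log2 fold change was -0.56 ± 0.20 (edgeR adjusted p = 0.219). For the genes not named in these paragraphs, Tnfrsf4, Tnfrsf1b, Cd28, Cd40lg and Traf1, no antibody comparison had an unadjusted p under 0.05 by edgeR in either population. Cd40lg had SE values of 0.47 in Treg cells and up to 1.96 in CD8 cells.

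**Figure D4:**
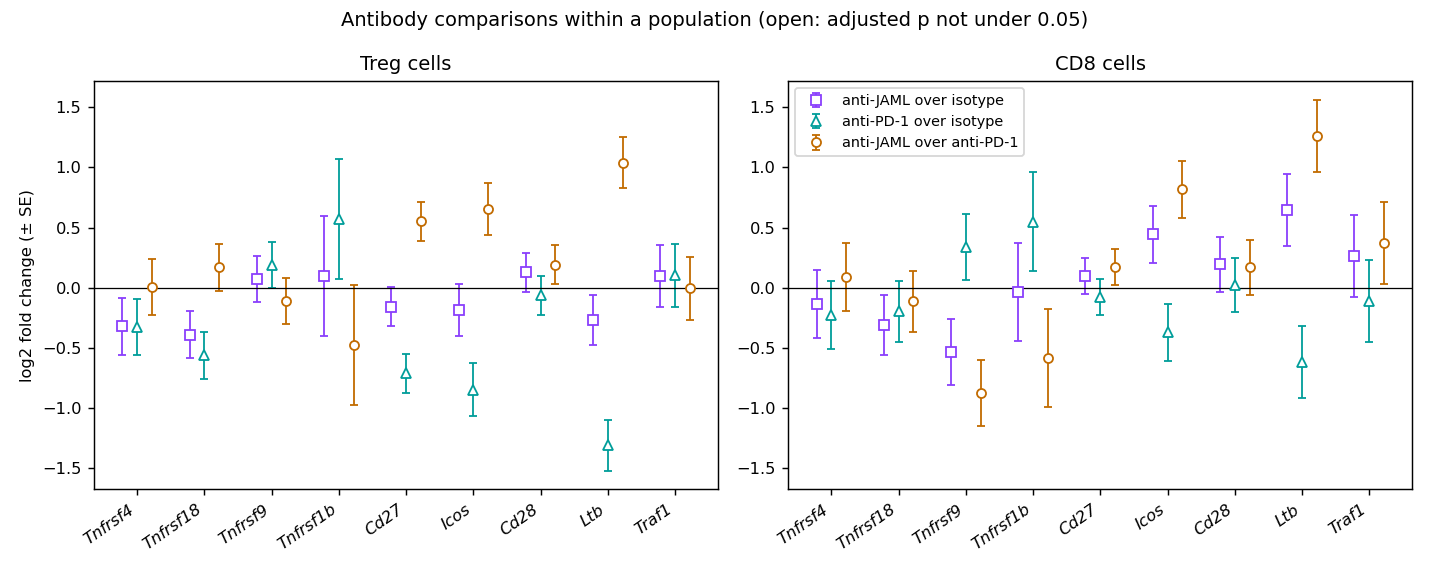
Log2 fold change with SE for 9 of the 10 genes in each antibody comparison, Treg cells at left and CD8 cells at right; Cd40lg is left out for its SE of up to 1.96 in CD8 cells. Ltb has the lowest value for anti-PD-1 over isotype in Treg cells (-1.31) and the highest for anti-JAML over anti-PD-1 in both populations (1.04 in Treg and 1.26 in CD8 cells), and no symbol passes the threshold.

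Whether an antibody acted differently in the 2 populations was tested with interaction terms over all 24 libraries. None of the 10 was called by edgeR, nor by DESeq2. The shares of all genes called were 0% for anti-JAML and 0% for anti-PD-1 by edgeR, and 1.72% and 1.26% by DESeq2 in that order. At an unadjusted p under 0.05 there was 1 of the 10 for each antibody, near the 8.39% of all genes for anti-JAML and 6.25% for anti-PD-1. For anti-JAML this was Ltb, whose difference over isotype was -0.27 in Treg cells and 0.65 in CD8 cells, an interaction of -0.87 ± 0.38 (edgeR adjusted p = 0.536). It was -0.25 without the libraries that stood apart. For anti-PD-1 it was Cd27, with -0.71 in Treg cells and -0.07 in CD8 cells, an interaction of -0.61 ± 0.21 (edgeR adjusted p = 0.57). Tnfrsf9 had an anti-JAML interaction of 0.65 ± 0.35 (edgeR adjusted p = 0.654), with 0.07 in Treg cells and -0.54 in CD8 cells, and 0.25 without the libraries that stood apart.

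Other genes of the pathway were followed by lists in the averaged contrast of Treg over CD8 cells. The lists were chosen for their role, with earlier results of these data known. Their counts are to be read against the 11.9% of all genes called higher and 14.2% called lower. Of 23 other TNF receptors, 16 were tested, 5 rose, 1 fell and the median log2 fold change was 0.64. The risers were Tnfrsf25 (death receptor DR3, 4.65 ± 0.83), Tnfrsf13b (TACI, 3.15 ± 0.595), Tnfrsf8 (CD30, 2.85 ± 0.93), Fas (0.93 ± 0.25) and Ltbr (4.09 ± 1.39). Ltbr, the receptor of the Ltb product, was at trace level, with a mean of 0.647 CPM in Treg libraries and 0.0447 CPM in CD8 libraries. Tnfrsf21 fell in Treg cells by 7.27 ± 1.56 on the log2 scale, with no count in 11 of 12 Treg libraries and in 4 of 12 CD8 libraries.

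Of 16 TNF ligands, 11 were tested, 2 rose and 2 fell, with a median of -0.09, counts near those shares of all genes. Tnfsf4, which encodes the ligand of OX40, fell: it averaged 2.55 ± 2.91 CPM in Treg libraries and 40.4 ± 18.8 CPM in CD8 libraries (SD, n = 12 each), a log2 fold change of -4.10 ± 0.81 (edgeR adjusted p = 0.000519). The receptor Tnfrsf4 was thus higher and its ligand lower in Treg than in CD8 cells. Fasl fell too, with 44.5 ± 23.4 CPM in Treg libraries and 198 ± 65.8 CPM in CD8 libraries and a log2 fold change of -2.14 ± 0.28 (edgeR adjusted p = 3.87e-06). Tnf (1.14 ± 0.36) and Tnfsf10 (TRAIL, 0.67 ± 0.20) rose.

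All 21 TRAF adaptors and signal transducers beside Traf1 were tested: 8 rose, none fell, and the median was 0.38. They were the NF-kB inhibitor Nfkbia (1.10 ± 0.10), Tnfaip3 (the deubiquitinase A20, 1.46 ± 0.18), Birc2 (1.13 ± 0.14) and Birc3 (1.05 ± 0.14), which encode ubiquitin ligases of TRAF complexes, the NF-kB subunits Nfkb1 (1.02 ± 0.22) and Relb (0.97 ± 0.22), and, further down, Tank and Traf3. Of 13 genes of the CD28 family, its ligands and proximal signalling, 3 rose (Ctla4, Cd86 and Pik3r1) and Pik3cd fell, with a median of 0.15. Of 11 other costimulatory receptors, 10 were tested, 6 rose and 3 fell, with a median of 0.86. Cd2 (1.13 ± 0.11), Cd5 (1.51 ± 0.16), Cd44, Slamf1, Cd6 and Slamf6 rose, and Cd226 (-0.98 ± 0.16), Crtam (-6.45 ± 1.01) and Cd244a (-3.86 ± 0.77) fell. No gene of these 5 lists was called by edgeR in an antibody comparison or an interaction.

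**Figure D5:**
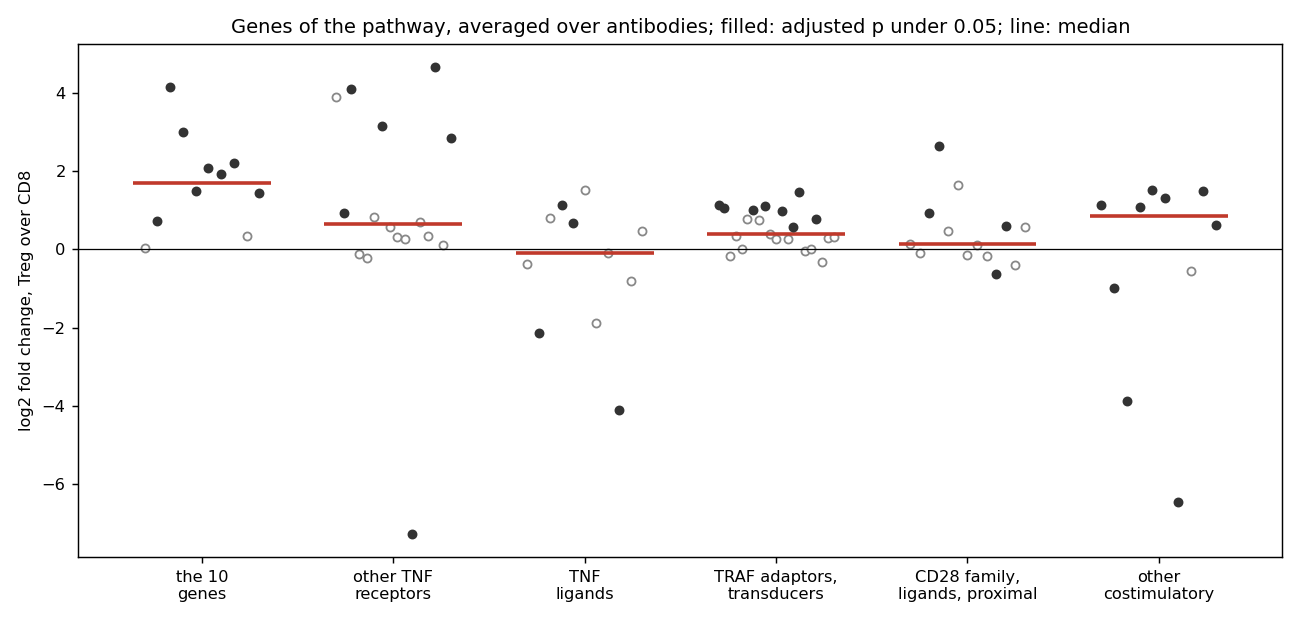
Log2 fold change of Treg over CD8 cells, averaged over antibodies, for the 10 genes and the 5 other lists of the pathway, each point 1 gene, filled where the edgeR adjusted p is under 0.05, and lines the list medians. The median of the 10 genes is 1.70, against 0.64 for other TNF receptors, -0.09 for TNF ligands and 0.38 for adaptors and transducers. The 10 genes and the lists were chosen with earlier results of these data known.

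For each of the 10 genes the most similar profile was sought among 7718 other genes with a mean of at least 10 CPM, by the root mean square difference of centred log2 CPM over the 24 libraries. Tnfrsf4 and Tnfrsf18 both had Sdf4 as their nearest gene (0.370 and 0.317), with Pim1 next for both (0.397 and 0.382). Sdf4 ends 232 bases before Tnfrsf4 on the same strand and averaged 1903 ± 462 CPM in Treg libraries and 563 ± 109 CPM in CD8 libraries (SD, n = 12 each), a log2 fold change of 1.76 ± 0.12 (edgeR adjusted p = 2.15e-10). Tnfrsf4 and Tnfrsf18 were still closer to each other than either was to Sdf4.

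Icos was nearest to Izumo1r (0.510), the gene of folate receptor 4, a known Treg surface marker, with Ikzf2 next (0.514). Cd40lg, a gene with low counts, was nearest to Nt5e (1.55), the gene of CD73, which is also known in Treg cells. That distance was the widest of those to a nearest gene, and Ramp1 came next for Cd40lg (1.56). Tnfrsf1b was nearest to Cyth4 (0.453), Ltb to Tspan13 (0.353), Traf1 to Shisa5 (0.367) and Cd28 to the class I gene H2-K1 (0.252). Tnfrsf9 was nearest to the glycolytic gene Aldoa (0.262) and Cd27 to Limd2 (0.233), where a flat profile would have been 0.268 from Cd27. Tnfrsf9 and Cd27, the pair not called between populations, had 0.479 and 0.268 as distances to a flat profile, while the other genes ranged between 0.442 for Cd28 and 2.93 for Cd40lg.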

How the data were processed

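Per the labels, RNA of sorted tumour Treg and CD8 T cells was made into 24 Smart-seq2 libraries, 4 per group. Both tables used were made by the authors and deposited by them: raw counts (whole reads per gene, not normalized) and TPM. How reads were counted, and on which annotation, no source used here tells. The submitters' processing notes list the build mm10 and the tools deepTools 3.3.1, STAR 2.7.3a, fastp 0.20.1 and SAMtools, with no roles. Of the gene IDs, 98.64% occur in GENCODE M21, from which positions were taken. Of the deposited units, TPM served to order genes and to see whether groups of Cd27 and Cd28 overlapped, and counts gave all tests.

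Tests were edgeR 4.0.16 quasi-likelihood F tests (R 4.3.3, robust, TMM scaling, filterByExpr with minimum count 10 and total 15), two-sided, with Benjamini-Hochberg adjustment over all genes tested and a threshold of 0.05. SE is the log2 fold change over the square root of F. All 24 libraries entered the averaged contrast and the interactions, 8 each contrast within an antibody, and 12 the antibody comparisons of a population. Log2 CPM used a prior count of 2. The fit was tested on simulated counts with known differences. No 2 libraries of a group agreed within counting noise. Amplified reads are not independent molecules, and precision rests on the spread of 4 libraries.

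All 10 members are named in every comparison; of other lists, genes called in the averaged contrast are named, up to 6 per list by smallest p, and any called between antibodies. Tank, Traf3, Cd6, Slamf6 and Cd244a are named beyond that rule, after their values were seen. The members, lists and libraries said to stand apart were chosen with earlier results of these data known. Alternatives were DESeq2 1.42.0, RLE scaling, no filter, a replicate block, other sets of libraries in the fit, each library left out, and the 5 libraries that stood apart left out.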

Additional observations from a re-analysis of the deposited data

Results flagged for a closer look

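In 60 sets of 4 libraries (10 genes in 6 groups), 1 library stood apart from the other 3 by Dixon's criterion in 5 sets, where chance flags about 1 in 20 sets. CD8 isotype library 3 held 3 of them. In CD8 isotype library 3 Tnfrsf4 had 593 CPM (the others 527 to 534), Tnfrsf18 had 290.4 CPM (the others 201 to 214) and Cd28 had 125 CPM (the others 187 to 197). In Treg isotype library 3 Cd28 had 339 CPM, against 276 to 284 CPM in the others. The fifth was Cd40lg in Treg anti-JAML library 4, with 68.7 CPM against 21.5 to 22.7 CPM in the others.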

How the results depend on the processing

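The count of members called moved by over 1.5 times in some of these cases, and by less or not at all in the others. After anti-JAML, where 4 rose in Treg over CD8 cells, 7 rose with DESeq2 and 7 with all 24 libraries in the fit, and between 2 and 4 with 1 library left out (2 without CD8 anti-JAML library 3). For anti-PD-1 over isotype in Treg cells, where 0 were called, 3 were called with DESeq2, 1 without a filter on low counts and between 0 and 1 with 1 library left out. DESeq2 called 1 for anti-JAML over anti-PD-1 in Treg cells and 2 in CD8 cells, against 0 each by edgeR, and 9 after isotype, Cd27 being added. Leaving out 1 library gave 8 to 9 in the averaged contrast, 5 to 7 after anti-PD-1 and 7 to 8 after isotype. Without the 5 libraries that stood apart these were 8, 6 and 7, and 5 after anti-JAML. The cause of these moves was not tested.

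With 1 library left out, Cd27 averaged over antibodies lay between -0.0038 and 0.11 (log2) and Tnfrsf9 after anti-PD-1 between -0.032 and 0.155, changing sign; Tnfrsf9 also changed sign to -0.019 without the libraries that stood apart. In the averaged contrast Tnfrsf9 had adjusted p-values between 0.0226 and 0.136 with 1 library left out, passing in 6 of 24 fits. Of 65 further differences not given singly above, 26 changed sign in some fit, none with an absolute log2 fold change over 0.49, and no fit called any. RLE scaling moved the median of all genes by at most 0.0769. With the replicate number as a replicate block, 8 members rose in the averaged contrast, 6 after anti-PD-1 (Tnfrsf1b lost, edgeR adjusted p = 0.0613) and 6 after isotype (Cd28, 0.0602, and Cd40lg, 0.119, lost), against 8, 7 and 8 without it. Same-numbered Treg and CD8 libraries had correlations of -0.084 to 0.129 (12 pairs, 1 over 0.1, 5 best with their own number). The main tests did not take the numbers to pair libraries, but such low correlations cannot show that they do not. Cd40lg had the fewest reads of the members, with 0 to 81 in CD8 libraries.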
